A study of Mus musculus with 18 samples.

Results

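Between the third and the fifth day in culture, explanted inner cell masses of the mouse blastocyst spread into outgrowths from which embryonic stem cell (ESC) lines are taken. The mature microRNAs (miRNAs) of 2 day 5 libraries were set against those of 2 day 3 libraries, which are 4 of the 18 small-RNA libraries of the study. All 1390 miRNAs in the deposited table were considered, and those too low to test were then left out. Many of the miRNAs named below were picked by the size of their change or after their values were seen. The other 14 libraries hold freshly isolated inner cell mass (day 0), outgrowths after 0.5, 1 and 2 days, and ESCs of 3 passage codes, with 2 libraries per group.

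Outgrowths of both days came from blastocysts of the NMRI strain. The trophectoderm was removed by immunosurgery, and the isolated cells were grown on gelatin in N2B27 with leukemia inhibitory factor and R2i, a pair of inhibitors consisting of PD0325901, which blocks MEK, and SB431542, which blocks receptors of activin and TGF-beta. The day 5 libraries and the day 3 libraries share this strain and medium and differ in their labels only in time. No label says whether the 2 libraries of a day came from separate embryos, pools or cultures, so the spread between them may be technical. The p-values rest on the spread within all 9 groups of the study, not on that of days 3 and 5 alone. For the ESC libraries the titles and descriptions disagree (libraries described as P2, P4 and P15 are titled with passages 4, 15 and 2), so codes are used as names and no order of passages is read.

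A miRNA is a short RNA that guides an Argonaute protein to messenger RNAs, which are then repressed, and its seed, bases 2 to 8 from the 5′ end, carries most of the pairing. Mouse pluripotent cells are known for miRNAs of the miR-290-295 cluster, for the miR-302/miR-367 cluster in more advanced epiblast, and for the miR-17-92 cluster with its paralogs, all of which include members with the core AAGUGC near the 5′ end. Members of these families lower cell-cycle inhibitors in ESCs, and let-7, with another seed, works against them during differentiation.

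The miRNAs that the comparison turns on are shown first, with sequences and positions from RefSeq on GRCm38.p6. In the first set capitals mark the core AAGUGC, at bases 3 to 8 of the miR-17 family and at bases 2 to 7 of the miR-290-295 and miR-302 members.
miR-93-5p: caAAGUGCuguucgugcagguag
miR-17-5p: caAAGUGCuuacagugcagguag
miR-106a-5p: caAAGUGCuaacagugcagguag
miR-20b-5p: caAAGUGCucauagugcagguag
miR-302d-3p: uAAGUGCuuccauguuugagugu
miR-294-3p: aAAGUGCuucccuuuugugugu
miR-295-3p: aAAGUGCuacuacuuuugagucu

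In the second set capitals mark the seed. The miR-10 pair and the related miR-100-5p, miR-423-5p, miR-351-5p, miR-871-5p and let-7f-5p were lower on day 5, miR-130b-3p and miR-363-3p were higher, and miR-25-3p shares its seed with miR-363-3p but was listed at 0 on day 5.
miR-10a-5p: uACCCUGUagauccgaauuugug
miR-10b-5p: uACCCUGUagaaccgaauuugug
miR-100-5p: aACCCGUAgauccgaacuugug
miR-423-5p: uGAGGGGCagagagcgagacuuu
miR-351-5p: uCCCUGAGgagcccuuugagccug
miR-871-5p: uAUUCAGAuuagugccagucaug
let-7f-5p: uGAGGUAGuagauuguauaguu
miR-130b-3p: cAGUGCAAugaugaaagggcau
miR-363-3p: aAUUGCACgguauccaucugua
miR-25-3p: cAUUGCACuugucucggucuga

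Values are normalized counts, rounded to whole numbers by the authors, and are given in the order replicate 1, replicate 2. They summed to 696629 and 783325 in the day 5 libraries and to 967060 and 668306 in the day 3 libraries. The day 5 libraries list 772 and 928 miRNAs above 0, against 369 and 468 in the day 3 libraries. From the spacing of low values, the day 3 libraries hold about 201000 and 370000 reads, and the lowest value they list stands for 5 reads. The day 5 libraries hold at least 2320000 and 2610000 reads if the same minimum applies. Values below 27.2, which is 5 reads in the shallowest library of the study, were therefore raised to 27.2 (the floor) before the log2 scale was taken. Over all 1390 miRNAs, on log2 of the deposited value plus 1, replicates correlated with a Pearson r of 0.961 on day 5 and 0.917 on day 3. This is a description, since miRNAs are not independent replicates, and 788 of these miRNAs were not tested below.

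Of the 1390 miRNAs, 602 were above the floor in at least 2 of the 18 libraries and were tested. Among them 58 rose on day 5, which is 9.63% of those tested, and 46 fell, which is 7.64% (limma on 9 groups, Benjamini-Hochberg adjusted p below 0.05, a call). At unadjusted p below 0.05 the counts were 96 and 60. Nearly all calls at adjusted p below 0.05 were lost when the 4 libraries of these days were fitted alone. Of the called miRNAs, 41 were higher by 2-fold or more and 33 were lower by 2-fold or more. The number that rose was 36 without day 5 replicate 1, 36 without day 3 replicate 1 and 29 with no filter on low values. Both day 5 libraries lay above both day 3 libraries, at the floor, in 145 of the 602 miRNAs (24.1%), and below them in 83 (13.8%), which is the background for each miRNA described as not overlapping. All 4 libraries held 276 miRNAs above the floor, of which 36 rose (13.0%) and 33 fell (12.0%). The median log2 difference of those 276, day 5 minus day 3, was 0.15, and it was 0.28 after scaling all libraries to the same total and 0.09 after scaling by median ratios. Each log2 difference stands beside that shift. Of the miRNAs that rose, 13 were at or below the floor in both day 3 libraries, and 12 of those that fell were at or below the floor in both day 5 libraries. Among these 4 libraries the deep ones are those of day 5, so above the floor depth and day cannot be told apart.

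**Figure D1:**
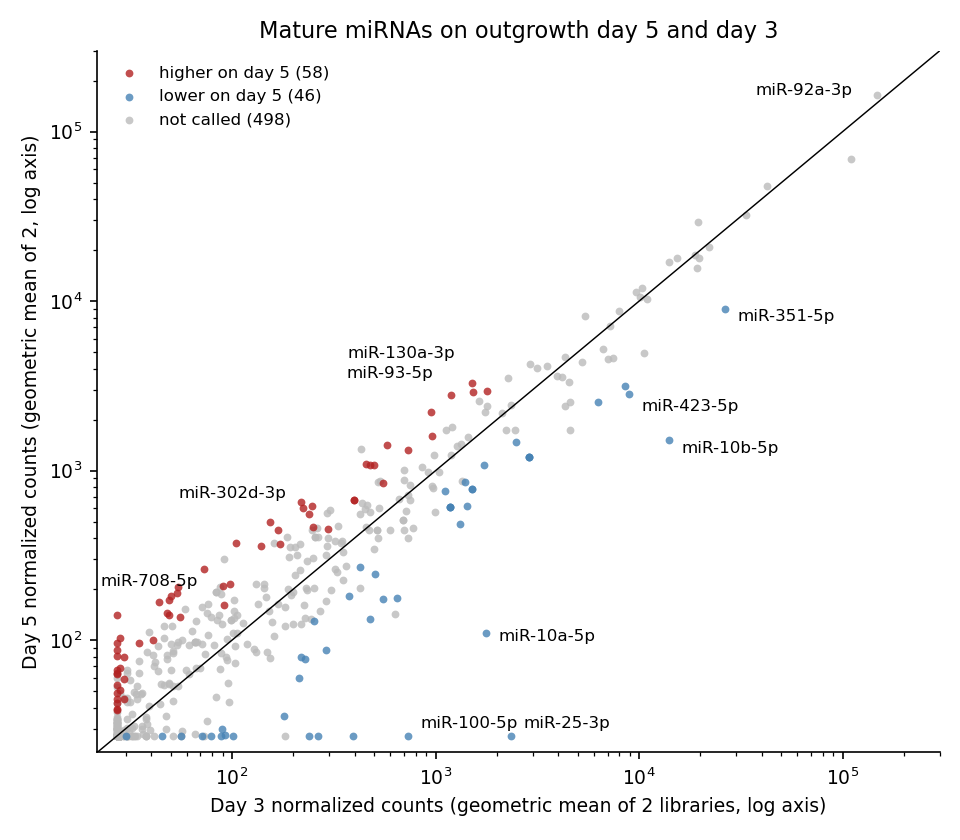
Normalized counts of the 602 tested miRNAs on day 5 (vertical, log axis) against day 3 (horizontal, log axis), each point the geometric mean of 2 libraries with values raised to the floor of 27.2. The 58 miRNAs that rose lie above the diagonal and the 46 that fell below it, and miR-25-3p and miR-100-5p lie on the floor on day 5.

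None of the 8 most abundant miRNAs of day 5 was called. miR-92a-3p, a product of both the miR-17-92 and the miR-106a-363 cluster, had 173152 and 158005 normalized counts on day 5 and 164742 and 130607 on day 3, which is 24.9% and 20.2% of the day 5 totals and 17.0% and 19.5% of the day 3 totals. The log2 difference was 0.17 with a standard error (SE) of 0.11 and was not called (limma adjusted p = 0.414). miR-182-5p, of the cluster with miR-183 and miR-96, had 56076 and 84301 on day 5 and 146380 and 82297 on day 3. Its replicates overlapped between the days, and it was not called (limma adjusted p = 0.155), except without day 3 replicate 2, where the adjusted p was 0.0237. miR-295-3p, which marks pluripotent cells of the mouse, had 20543 and 15645 on day 5 and 17973 and 21396 on day 3, with overlapping groups. The 8 most abundant miRNAs of day 5 together took 53.2% and 57.0% of the day 5 totals and 54.2% and 49.8% of the day 3 totals. Both miR-295-3p and miR-292-5p, products of the cluster that marks pluripotent mouse cells, were among these 8.

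The miR-17-92 cluster and its paralogs held the largest number of rises of any list. These clusters, on chromosome 14 (Mir17hg), on the X chromosome (miR-106a-363) and in Mcm7 on chromosome 5 (miR-106b-25), promote proliferation in many tissues. Of 23 tested members 13 rose (56.5%, against 9.63% of all tested miRNAs) and 1, miR-25-3p, fell (4.35%, against 7.64%). Of the 17 members above the floor in all 4 libraries 10 rose, against 13.0% of all such miRNAs. The median log2 difference of the 23 was 1.18, against 0 over all 602 tested miRNAs. miR-93-5p (chr5:138165574-138165596, within Mcm7) had 3304 and 2386 normalized counts on day 5 and 1145 and 1242 on day 3. Both day 5 libraries lay above both day 3 libraries, and the log2 difference was 1.24 (SE 0.17, limma adjusted p = 0.00049). miR-17-5p (chr14:115043684-115043706, in an exon of Mir17hg) had 1196 and 969 on day 5 and 462 and 543 on day 3, without overlap, a log2 difference of 1.10 (SE 0.21, limma adjusted p = 0.0034).

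The X-linked paralogs rose as well. miR-363-3p (chrX:52741697-52741718, intergenic) had 1026 and 1144 on day 5 and 486 and 471 on day 3, a log2 difference of 1.18 (limma adjusted p = 0.00058). miR-106a-5p (chrX:52742541-52742563) had 565 and 542 on day 5 and 236 and 240 on day 3, a log2 difference of 1.22 (limma adjusted p = 0.00108). miR-20b-5p (chrX:52742159-52742181) had 508 and 392 on day 5 and 125 and 226 on day 3, a log2 difference of 1.41 (limma adjusted p = 0.00456). In each of these 3 the groups did not overlap. All 3 calls were lost when 1 was added to the deposited values in place of the floor.

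Other members varied. miR-18a-5p (chr14:115043867-115043889), from the same transcript as miR-17-5p, had 202 and 178 on day 5 and 43 and 67 on day 3. The log2 difference was 1.82 (limma adjusted p = 0.00697). This miRNA was not called when 1 or 10 was added to the deposited values in place of the floor. It was no longer called without day 5 replicate 1 or without day 3 replicate 1, where the adjusted p reached 0.0655. miR-106b-5p had 243 and 178 on day 5 and 82 and 99 on day 3 (limma adjusted p = 0.0317), and it kept its call in 1 of the 4 fits that left out a library. miR-20a-5p had 468 and 354 on day 5 and 207 and 166 on day 3, which did not overlap but did not pass the test (limma adjusted p = 0.143). miR-19b-3p, from the same transcript with another seed, had 710 and 456 on day 5 and 380 and 592 on day 3, and its groups overlapped. Over the whole list the count that rose was 8 without day 5 replicate 1, 8 without day 3 replicate 1 and 12 without either of the other libraries.

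The miR-302/miR-367 cluster, on chromosome 3 opposite an intron of Larp7, is expressed in primed epiblast more than in naive cells. Of 7 tested members 3 rose (42.9%, against 9.63% of all tested miRNAs) and none fell. miR-302a-3p had 566 and 633 normalized counts on day 5 and 298 and 166 on day 3, without overlap, a log2 difference of 1.43 (SE 0.28, limma adjusted p = 0.0037). miR-302d-3p (chr3:127545665-127545687) had 820 and 467 on day 5 and 202 and 303 on day 3, a log2 difference of 1.32 (SE 0.36, limma adjusted p = 0.0262). miR-302b-3p (chr3:127545275-127545297) had 434 and 316 on day 5 and 130 and 227 on day 3, a log2 difference of 1.11 (SE 0.29, limma adjusted p = 0.0201). Both day 5 libraries were above both day 3 libraries in all 3, but miR-302b-3p and miR-302d-3p were not called without day 5 replicate 1 or without day 3 replicate 1, leaving miR-302a-3p as the 1 called member of the cluster in those fits. Both were also lost after scaling to the same total and with no filter on low values, and all 3 calls were lost when 1 was added in place of the floor.

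The miR-290-295 cluster, on chromosome 7, which is the most abundant ESC-specific cluster of the mouse, moved in part. Of 14 tested members 3 rose (21.4%, against 9.63% of all tested miRNAs), 1 fell (7.14%, against 7.64%) and 10 were not called. The fall is miR-294-5p, listed at 0 on day 5, which was called in 0 of the 4 limma fits that left out a library (adjusted p 0.0769 to 0.0993). The median log2 difference of the 13 above the floor in all 4 libraries was 0.21. miR-290a-3p (chr7:3218674-3218697) had 430 and 299 on day 5 and 111 and 173 on day 3, a log2 difference of 1.37 (SE 0.39, limma adjusted p = 0.0297). miR-293-3p (chr7:3220390-3220411) had 3451 and 2479 on day 5 and 1357 and 1735 on day 3, a log2 difference of 0.93 (limma adjusted p = 0.00287). miR-294-3p (chr7:3220691-3220712) had 3393 and 2534 on day 5 and 1506 and 2134 on day 3, a log2 difference of 0.71 (limma adjusted p = 0.0446). None of the 3 overlapped between the days, and miR-293-3p was called in all 4 fits that left out a library, whereas miR-290a-3p and miR-294-3p were not called without day 5 replicate 1 or without day 3 replicate 1. miR-293-3p is the member with a shifted 5′ end, so its seed does not hold AAGUGC.

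The core AAGUGC was looked for at base 2 or base 3 of mature sequences, a grouping chosen after the values were seen and given without a test. It stood there in 14 of the 486 tested miRNAs with a RefSeq sequence (2.88%). Of those 14, 9 rose and none fell, which is 64.3%, against 8.85% of the 486. With the core at base 3, as in the miR-17 family, 5 of 6 rose, and with the core at base 2, 4 of 8 rose. The number that rose was 4 of 14 without day 5 replicate 1 and 4 of 14 without day 3 replicate 1, and the median log2 difference of the 14 was 1.12 with all libraries and 0.92 and 0.98 in those fits. The sums by seed differed between the sub-groups. miRNAs with the seed AAAGUGC summed to 6284 and 4822 on day 5 and 2257 and 2516 on day 3, a log2 difference of 1.21 (SE 0.16, limma adjusted p = 9.28e-05 over 86 seed families). Those with the seed AAGUGCU summed to 26338 and 19851 on day 5 and 20379 and 24914 on day 3, with overlapping groups and a log2 difference of 0.02, and miR-295-3p holds most of that sum. miR-302a-3p has no entry in the sequence table and is in neither the count of the core nor the sums. Of the 86 seed families 14 rose (16.3%) and 10 fell (11.6%). Members were summed first and the floor was put on the sum. Among the rises, CACUGAG (0 and 0), AGCACCA (0 and 20), AACAGUC (0 and 16) and ACUGGCC (0 and 20) were below the floor on day 3. Among the falls, GUCCUUC (17 and 16) was below it on day 5.

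miR-130 and miR-301 share the seed AGUGCAA, which begins with the last bases of that core, and come from several loci. Of 5 tested members 3 rose (60.0%, against 9.63% of all tested miRNAs) and none fell. miR-130a-3p (chr2:84741116-84741137, intergenic) had 3868 and 2790 on day 5 and 1482 and 1556 on day 3, a log2 difference of 1.11 (SE 0.18, limma adjusted p = 0.00132). miR-130b-3p (chr16:17124071-17124092, in an intron of 2610318N02Rik) had 2295 and 2136 on day 5 and 962 and 942 on day 3, a log2 difference of 1.22 (SE 0.24, limma adjusted p = 0.00379). miR-301b-3p had 263 and 266 on day 5 and 82 and 65 on day 3, a log2 difference of 1.86 (SE 0.23, limma adjusted p = 0.000213). The day 5 libraries lay above the day 3 libraries in all 3, and all 3 were called whichever library was left out. miR-301a-3p had 948 and 694 on day 5 and 880 and 1040 on day 3, with overlapping groups and no call. The sum of miR-130a-3p, miR-130b-3p and miR-301a-3p, the members with a RefSeq sequence, was 7111 and 5620 on day 5 and 3324 and 3538 on day 3 (log2 difference 0.88, limma adjusted p = 0.000454).

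**Figure D2:**
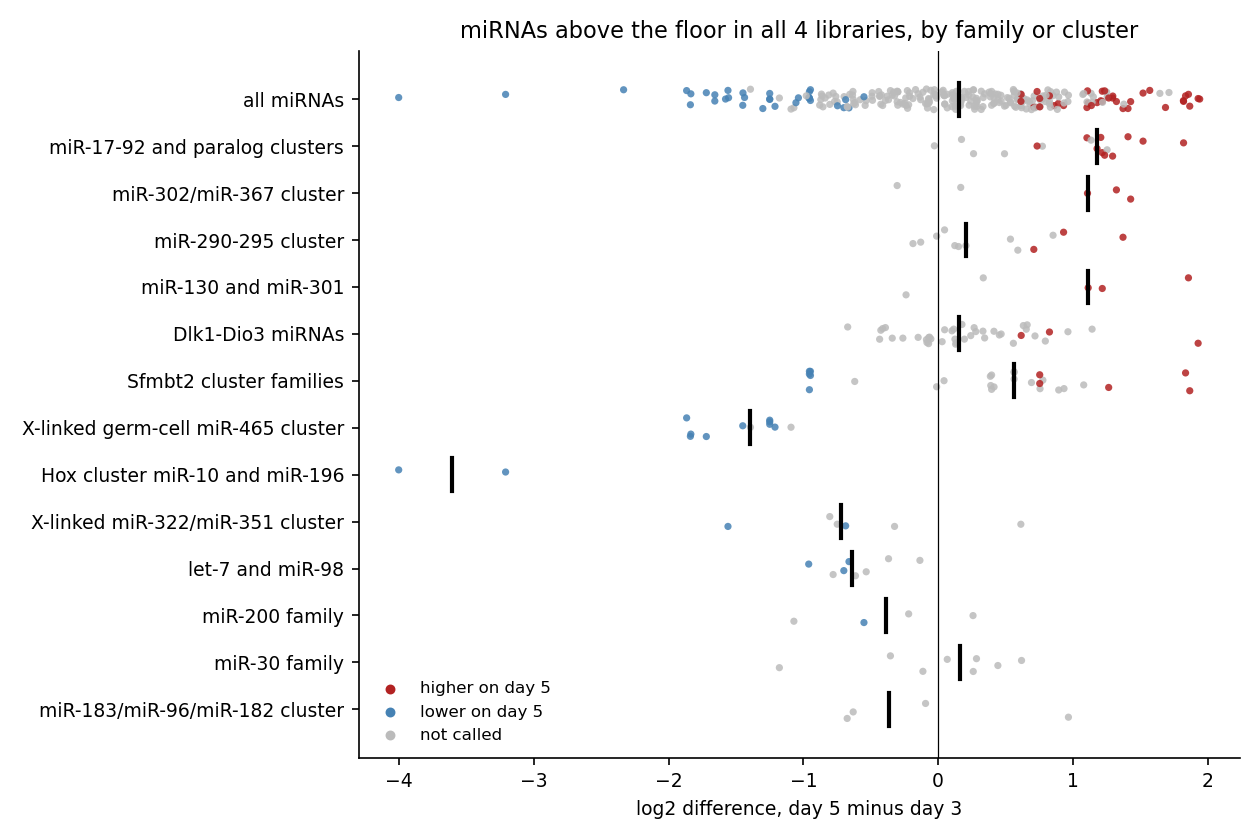
Log2 difference, day 5 minus day 3, of miRNAs above the floor in all 4 libraries, by family or cluster, with a bar at each median. Members of the miR-17-92 and miR-130 families lie mostly above 0, with medians of 1.18 and 1.11, and those of the X-linked germ-cell cluster lie below 0.

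Single miRNAs outside these families were among the largest rises. miR-708-5p (chr7:96249450-96249472, in an intron of Tenm4) had 181 and 155 on day 5 and 34 and 56 on day 3, a log2 difference of 1.94 (SE 0.31, limma adjusted p = 0.00132), the largest among called miRNAs with a mean of at least 100 in the 4 libraries. It was not called when 1 was added in place of the floor. miR-335-5p (chr6:30741314-30741336, in an intron of the imprinted gene Mest) had 534 and 461 on day 5 and 125 and 190 on day 3, a log2 difference of 1.69 (SE 0.30, limma adjusted p = 0.00212). miR-143-3p had 619 and 680 on day 5 and 250 and 191 on day 3, a log2 difference of 1.57 (SE 0.24, limma adjusted p = 0.00108). In miR-708-5p, miR-335-5p and miR-143-3p both day 5 libraries were above both day 3 libraries. miR-652-3p (chrX:142739060-142739080, in an intron of Tmem164) had 176 and 169 on day 5 and 77 and 31 on day 3 (log2 difference 1.82, limma adjusted p = 0.0147), but kept its call in 1 of the 4 fits that left out a library, with an adjusted p of up to 0.102.

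Calls in the large imprinted clusters depended on the floor. From the Dlk1-Dio3 region on chromosome 12, whose miRNAs come from the maternal allele, 5 of 74 tested members rose (6.76%, against 9.63% of all tested miRNAs) and none fell, and the median log2 difference of the 42 above the floor in all 4 libraries was 0.16. Its largest rise was miR-382-5p (chr12:109733781-109733802, in an intron of Mirg), with 214 and 200 on day 5 and 82 and 36 on day 3, a log2 difference of 1.93 (SE 0.36, limma adjusted p = 0.00285), a call lost when 1 was added in place of the floor. The most abundant member, miR-541-5p, had 26339 and 39050 on day 5 and 45413 and 24756 on day 3, with overlapping groups. The list had 8 rises after adding 1 and 10 after adding 10 to the deposited values in place of the floor, and 2 rises without day 5 replicate 1, 3 without day 3 replicate 1 and 6 without either of the others, and 1 member fell without day 3 replicate 2.

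The Sfmbt2 cluster on chromosome 2, an imprinted rodent cluster active in the placenta, had 5 rises and 5 falls among 44 tested members (11.4% each way, against 9.63% and 7.64% of all tested miRNAs). With members of identical values taken once, these are 4 distinct measurements that rose and 2 that fell, of 35. All 5 rises were 5p arms and all 5 falls were 3p arms. The list had 11 rises after adding 1 and 12 after adding 10 to the deposited values in place of the floor. miR-467b-5p had 394 and 357 on day 5 and 115 and 96 on day 3, a log2 difference of 1.84 (SE 0.34, limma adjusted p = 0.00285). miR-669c-5p had 173 and 194 on day 5 and 29 and 87 on day 3, a log2 difference of 1.87 (SE 0.39, limma adjusted p = 0.00583). miR-467a-5p had 888 and 1349 on day 5 and 568 and 365 on day 3 (log2 difference 1.27, limma adjusted p = 0.00312). The rises also held miR-669a-5p and miR-669p-5p, whose values are identical, and the list had 3 rises without day 5 replicate 2. The 5 that fell are miR-466 miRNAs in 2 sets with identical values. miR-466a-3p, with miR-466e-3p, had 731 and 839 on day 5 and 1544 and 1477 on day 3, a log2 difference of -0.95 (SE 0.16, limma adjusted p = 0.00165). Reads of these near-identical copies cannot be told apart.

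The miR-10 pair, which lies within the Hox clusters and is best known from patterning of the body axis, was much lower on day 5. Of 3 tested members of miR-10 and miR-196, 2 fell (66.7%, against 7.64% of all tested miRNAs). miR-10b-5p (chr2:74726074-74726096, in introns of Hoxd3 and Hoxd4) had 1075 and 2118 normalized counts on day 5 and 21292 and 9145 on day 3. The groups did not overlap, and the log2 difference was -3.21 (SE 0.47, limma adjusted p = 0.0007). miR-10a-5p (chr11:96317186-96317208, intergenic) had 68 and 179 on day 5 and 2713 and 1152 on day 3, a log2 difference of -4.00 (SE 0.50, limma adjusted p = 0.000232). On days 0 to 2 miR-10b-5p lay between 5955 and 18305 and miR-10a-5p between 832 and 2800, so in both miRNAs each day 5 value was below every earlier library. In the 6 ESC libraries miR-10b-5p ranged from 220 to 2686 and miR-10a-5p from 41 to 1415. Summed by their shared seed, they had 1143 and 2297 on day 5 and 24005 and 10297 on day 3.

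miR-100-5p (chr9:41531437-41531458), a relative of the miR-10 family, was above the floor in both day 3 libraries and in 1 other library of the study. It had 11 and 23 on day 5 and 1381 and 390 on day 3, a log2 difference of -4.75 with the day 5 values raised to the floor (SE 0.41, limma adjusted p = 2.28e-05). Of the 8 libraries of days 0 to 2 it was listed at 0 in 7 and at 35 in 1, and it did not exceed 15 in any ESC library. The adjusted p was 0.0605 when values of other groups at the floor were left out of the fit. miR-99b-5p, a relative with the same seed, had 1613 and 4026 on day 5 and 8010 and 2591 on day 3, and its groups overlapped.

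The X-linked cluster of miR-465, miR-743, miR-871 and their neighbours, known for expression in male germ cells, had 11 falls and no rise among 21 tested members, or 9 falls among 19 with members of identical values taken once. The share that fell among the 21 was 52.4%, against 7.64% of all tested miRNAs. Of the 11 members above the floor in all 4 libraries 9 fell, with a median log2 difference of -1.39, and 10 to 12 of the list fell whichever library was left out. miR-741-3p (chrX:66796809-66796831) had 11 and 14 on day 5 and 645 and 240 on day 3, a log2 difference of -3.85 with the day 5 values raised to the floor (SE 0.53, limma adjusted p = 0.00049). miR-743b-3p (chrX:66777266-66777287) had 180 and 175 on day 5 and 775 and 540 on day 3, a log2 difference of -1.87 (SE 0.20, limma adjusted p = 7.96e-05). miR-871-5p (chrX:66810472-66810494) had 123 and 143 on day 5 and 534 and 421 on day 3, a log2 difference of -1.84 (SE 0.20, limma adjusted p = 7.96e-05). None of the 3 overlapped between the days.

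Further members of the cluster had the same direction. miR-463-5p had 68 and 53 on day 5 and 265 and 173 on day 3 (log2 difference -1.83, limma adjusted p = 0.0016). miR-878-5p had 108 and 71 on day 5 and 260 and 320 on day 3 (log2 difference -1.72, limma adjusted p = 0.00212). miR-465a-3p, whose values are identical to those of miR-465b-3p and miR-465c-3p, had 1152 and 1269 on day 5 and 3007 and 2748 on day 3 (log2 difference -1.25, limma adjusted p = 0.000232). The most abundant member, miR-470-5p, did not pass the test (limma adjusted p = 0.166). It had 3500 and 7028 on day 5 and 16231 and 6881 on day 3, and its groups overlapped. In miR-871-5p and miR-743b-3p both day 5 libraries were below all 8 libraries of days 0 to 2, whose lowest values were 509 and 363.

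The X-linked cluster that holds miR-322, miR-351 and their neighbours miR-450 and miR-503 was lower in its most abundant member. Among its 7 tested members 28.6% fell, against 7.64% of all tested miRNAs. miR-351-5p (chrX:53053315-53053338, intergenic), a relative of miR-125, had 7234 and 11223 on day 5 and 34801 and 20260 on day 3. The day 5 libraries were below the day 3 libraries, and the log2 difference was -1.56 (SE 0.29, limma adjusted p = 0.00295). miR-322-5p, which shares the seed of miR-15 and miR-16, had 1063 and 1086 on day 5 and 1900 and 1573 on day 3, a log2 difference of -0.69 (limma adjusted p = 0.0262), and kept its call in 1 of the 4 fits that left out a library, with an adjusted p of up to 0.173. Of 7 tested members these 2 fell and the other 5 were not called, and without day 5 replicate 1 another member rose.

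Among let-7 and miR-98, which promote differentiation and are low in ESCs, 4 of 10 tested members fell, 6 were not called and none rose, and the median log2 difference was -0.64. The share that fell was 40.0%, against 7.64% of all tested miRNAs. let-7e-5p (chr17:17830366-17830387, in an intron of Spaca6) had 142 and 120 on day 5 and 250 and 258 on day 3, a log2 difference of -0.96 (SE 0.18, limma adjusted p = 0.00295). let-7f-5p, the most abundant of the 4, had 838 and 884 on day 5 and 1453 and 1345 on day 3, a log2 difference of -0.70 (SE 0.16, limma adjusted p = 0.00961). let-7a-5p had 272 and 266 on day 5 and 404 and 448 on day 3, a log2 difference of -0.66 (SE 0.16, limma adjusted p = 0.0156). Groups did not overlap in any of them, but let-7f-5p was not called in 2 and let-7a-5p in 3 of the 4 fits that left out a library. The list had 2 falls without day 5 replicate 1, 3 without any 1 of the other libraries, 2 after scaling to the same total and 1 with no filter on low values. The let-7 seed GAGGUAG summed to 1681 and 1600 on day 5 and 2683 and 2572 on day 3 (log2 difference -0.68, limma adjusted p = 0.00252).

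**Figure D3:**
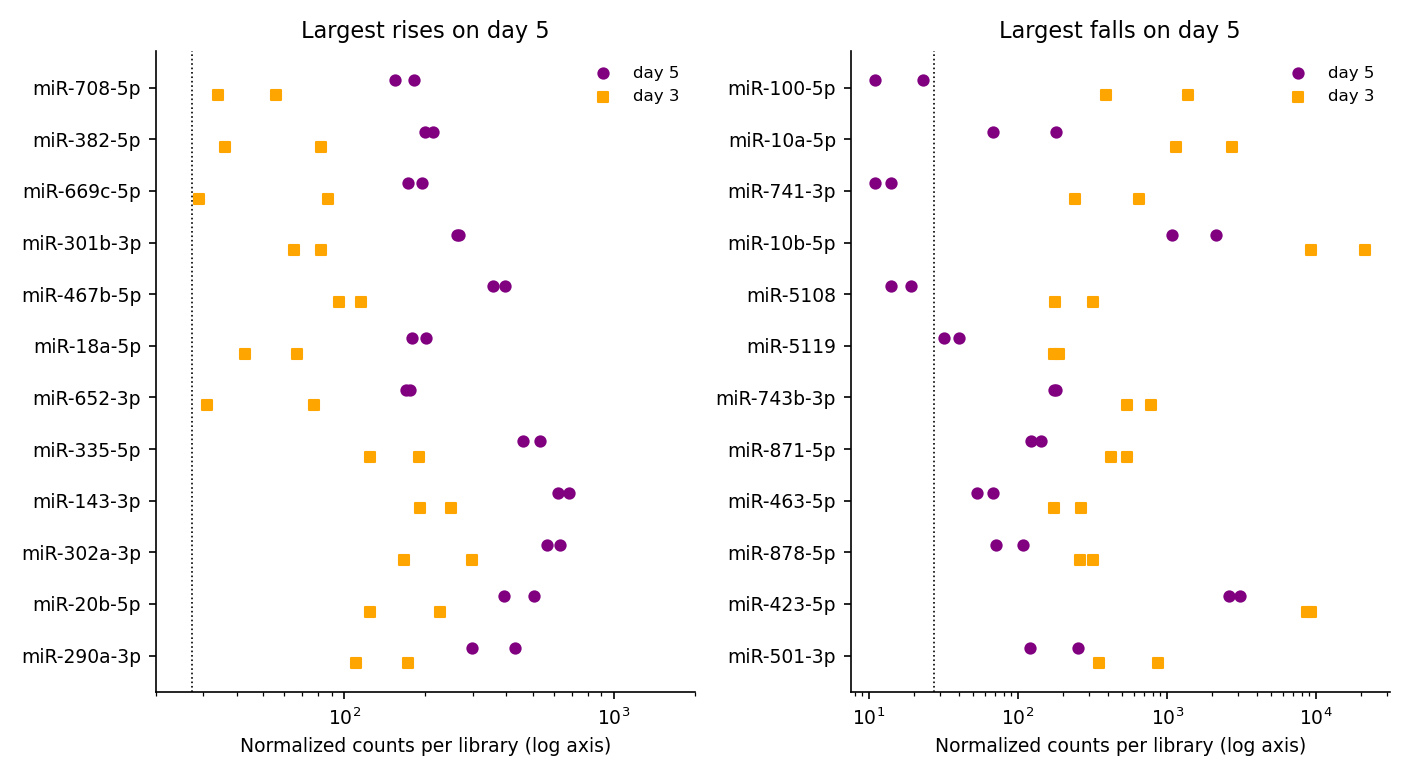
Normalized counts in each library (log axis) of the 12 largest rises, left, and the 12 largest falls, right, with day 5 as circles, day 3 as squares and the floor of 27.2 as a dotted line. Only miRNAs whose 2 days do not overlap were picked, so circles and squares lie apart in every row by that rule. miR-100-5p, miR-741-3p and miR-5108 lie under the floor on day 5.

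miR-423-5p had the smallest standard error among the 12 largest falls. This miRNA (chr11:77078122-77078144, in an intron of Nsrp1) had 3084 and 2604 normalized counts on day 5 and 8683 and 9196 on day 3. The groups did not overlap, and the log2 difference was -1.66 (SE 0.13, limma adjusted p = 1.49e-05). On days 0 to 2 it lay between 22911 and 27731, and in the ESC libraries between 472 and 2554, so the day 3 and day 5 libraries lay between the earlier outgrowths and the ESCs. miR-5108 (chr10:61774795-61774813) had 14 and 19 on day 5 and 178 and 320 on day 3 (limma adjusted p = 7.96e-05) and was listed at 0 in all 6 ESC libraries. miR-5119 (chr11:98262638-98262656, in an intron of Cdk12) had 32 and 40 on day 5 and 188 and 173 on day 3, a log2 difference of -2.33 (SE 0.44, limma adjusted p = 0.00331), a call that was also lost when 1 was added in place of the floor. miR-501-3p (chrX:7241270-7241291, in an intron of Clcn5) had 121 and 252 on day 5 and 871 and 348 on day 3 (log2 difference -1.66, limma adjusted p = 0.0396), and was not called without day 5 replicate 1 or without day 3 replicate 1, or with a replicate block (adjusted p = 0.0545).

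Arms of 1 hairpin did not always move together. The balance of arms, log2 of 5p over 3p, was tested for 46 hairpins with both arms measured, and 3 differed between the days (6.52%), all with a lower ratio on day 5. miR-423-3p had 3979 and 3172 on day 5 and 3767 and 4588 on day 3, so the ratio of 5p to 3p was 0.775 and 0.821 on day 5 and 2.31 and 2.00 on day 3, a log2 difference of -1.43 (limma adjusted p = 0.0072). For miR-351 the difference was -2.17 (limma adjusted p = 0.0062), with 40 and 109 of the 3p arm on day 5 and 38 and 49 on day 3. For miR-302a the difference was -1.73 (limma adjusted p = 0.0072), since its 5p arm had 83 and 70 on day 5 and 82 and 108 on day 3 while its 3p arm rose. None of the 3 pairs passed without day 5 replicate 2, where each had an adjusted p of 0.0554, and miR-423 did not pass without day 5 replicate 1 (adjusted p = 0.0766).

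**Figure D4:**
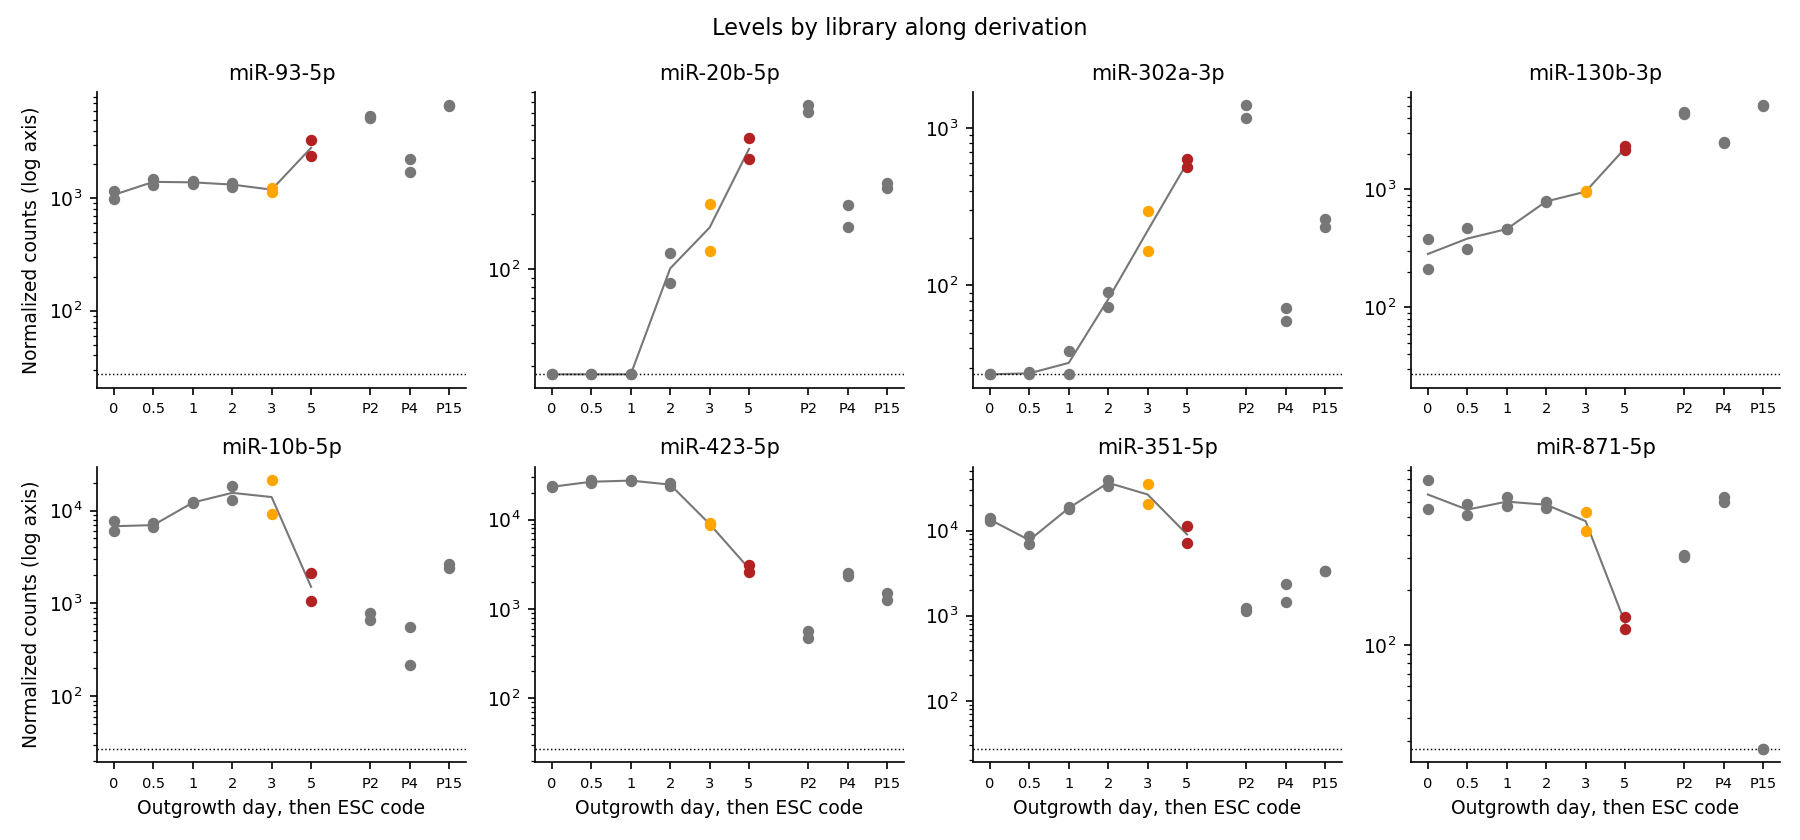
Normalized counts by library (log axis) of 8 miRNAs along the outgrowth days and in the 3 ESC codes, with day 5 in red, day 3 in orange, lines through the geometric mean of each day, values raised to the floor and the floor dotted. miR-93-5p lies between 986 and 1489 through day 3 and at 3304 and 2386 on day 5, whereas miR-20b-5p and miR-302a-3p climb from day 2.

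The rises differ in when they began. miR-93-5p lay between 986 and 1489 on days 0 to 2 and at 1145 and 1242 on day 3, so its day 5 values were the first above that range. miR-301b-3p likewise lay between 39 and 92 on days 0 to 2. miR-106a-5p was at 0 in 5 of the 6 libraries up to day 1, at 142 and 136 on day 2, and higher on each day after. miR-302a-3p did not exceed 38 up to day 1 and had 73 and 91 on day 2. miR-130b-3p lay between 212 and 470 up to day 1 and at 786 and 788 on day 2. Tests of each step at the same floor called 64 rises and 46 falls on day 0.5 against day 0, 35 and 80 on day 1 against day 0.5, 47 and 51 on day 2 against day 1, 20 and 25 on day 3 against day 2, and 58 and 46 on day 5 against day 3. Neighbouring steps share libraries, and the numbers are given side by side.

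On day 5, 3 miRNAs were listed at 0 in 1 or both libraries although they were abundant nearly everywhere else. They are described apart from the other falls, since an exact 0 in a table without raw counts can be a failed estimate, and no fold is given for them. Without them 44 of the 46 falls are left. miR-25-3p (chr5:138165332-138165353, within Mcm7) was listed at 0 and 0 on day 5 and at 3002 and 1822 on day 3, and all 16 other libraries held 1716 to 14185. Its own other arm, miR-25-5p, had 752 and 686 on day 5 and 765 and 701 on day 3, and its neighbours in Mcm7, miR-93-5p and miR-106b-5p, rose. miR-294-5p was listed at 0 and 0 on day 5 and at 255 and 273 on day 3, and 15 of 16 other libraries held at least 100, the exception being 1 day 1 library at 0. miR-26b-5p was listed at 0 in 1 day 5 library and at 743 in the other, against 707 and 560 on day 3, and was also listed at 0 in both libraries of ESC code P4. A like 0 occurred for miR-92b-3p, which was listed at 0 in 1 day 0 library and both libraries of ESC code P2 and had 24282 and 35011 on day 5 and 26882 and 14060 on day 3.

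Marker lists of fibroblasts, blood and neural cells had rises in 40.0%, 33.3% and 23.1% of their tested members, against 9.63% of all tested miRNAs. Members with identical values count separately in these shares. Both day 5 sums lay above both day 3 sums in each list. All sums in this paragraph are of deposited values without the floor. Low values that the shallower day 3 libraries could not list can therefore count on day 5 only. Above the floor in all 4 libraries were 1 of 5 tested fibroblast, 3 of 6 blood and 2 of 13 neural markers. In bulk RNA a change in the number of cells of a type and a change in RNA per cell cannot be told apart. Summed over the list, miRNAs of fibroblasts and smooth muscle had 1678 and 873 on day 5 and 298 and 703 on day 3, where miR-199a-3p and miR-199b-3p, with identical values, both count. With that pair taken once, the tested members summed to 1180 and 794 on day 5 and 274 and 447 on day 3, and 2 of 4 rose. They were miR-143-3p, above, and miR-145a-5p, with 65 and 37 on day 5 and 0 and 0 in both day 3 libraries and in all earlier ones, a call lost without day 3 replicate 1 (adjusted p = 0.0666), whereas miR-199a-3p had 496 and 75 on day 5 and 24 and 256 on day 3. Blood markers summed to 2967 and 2822 on day 5 and 1953 and 1473 on day 3. Of 6 tested 2 rose. One was miR-150-5p, with 1856 and 1095 on day 5 and 467 and 722 on day 3. The other was miR-142-3p, with 52 and 35 on day 5 and 0 and 11 on day 3, a call lost when 1 was added in place of the floor. Both miRNAs lost their calls after scaling to the same total and with no filter on low values. Neither was called without day 5 replicate 1 or without day 3 replicate 1, and miR-223-3p, a myeloid marker, was listed at 0 in all 4 libraries. Neural markers summed to 1030 and 905 on day 5 and 501 and 618 on day 3, with 3 rises and 1 fall among 13. The rises were 1 without day 5 replicate 1 and 2 without day 5 replicate 2 or without day 3 replicate 1, and the fall, miR-138-1-3p, was called in 0 of the 4 limma fits that left out a library (adjusted p 0.052 to 0.104). Endoderm and liver markers summed to 1486 and 1670 on day 5 and 1954 and 1302 on day 3, with 1 fall (miR-215-5p) among 4. Endothelial markers had no call among 2. Striated muscle markers had 1 rise among 2, miR-499-5p, a call lost when 1 was added in place of the floor. They summed to 58 and 54 on day 5 and 0 and 14 on day 3. The part of such cells in the rises of other lists was not tested.

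In small families 0 to 2 members were called, to be read against the 9.63% that rose and 7.64% that fell among all tested miRNAs. Among the miR-200 family, which keeps epithelial identity, 1 of 8 tested members fell: miR-200b-3p had 772 and 742 on day 5 and 1126 and 1091 on day 3 (log2 difference -0.55, limma adjusted p = 0.0201), and no fit that left out a library kept that call. Of the miR-30 family 1 of 11 rose and none fell. No member was called among miR-182, its cluster mates miR-183 and miR-96 (5 arms tested), miR-15/miR-16 and relatives (4), miR-26 and miR-101 (5), miR-34 and miR-449 (2), and miR-221/miR-222 with miR-21 (4). Among miR-148/miR-152 and miR-29, which repress DNA methyltransferases, 2 of 7 rose, miR-152-3p and miR-29a-3p, both at or below the floor on day 3. miR-29a-3p had 87 and 75 on day 5 and 0 and 20 on day 3. A miRNA of the miR-181 family, miR-181b-5p, had 184 and 107 on day 5 and 0 and 22 on day 3 (limma adjusted p = 2.41e-05), and 1 of 6 tested members of that family was called. Both day 3 values of miR-181b-5p were below the floor. The calls of miR-152-3p, miR-29a-3p and miR-181b-5p were lost when 1 was added in place of the floor. miR-27a-3p was the 1 called member of 7 from the clusters of miR-23, miR-24 and miR-27, listed at 0 and 0 on day 5 and at 101 and 61 on day 3.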

How the data were processed

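The deposited table holds 1 score for each of 1390 mature miRNAs and 18 libraries, a normalized count that the authors rounded to whole numbers. Per the labels' protocols, PureLink columns separated the small RNA, a TruSeq Small RNA kit gave the libraries, and a PippinHT selected their size. The series' design text names an Illumina GAIIx. Per the submitters' processing notes, cutadapt (no version named), mm10 and DESeq2 1.30.0 were used. Aligner, counter and annotation: not given in the sources used here.

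The step of values below 1000 was searched (tolerance 0.5) to find what 1 read is worth in each library, and the floor of 27.2 is 5 reads in the shallowest one. Precision is limited by depth: at the floor 5 reads in the shallowest library carry a large counting error. miRNAs above the floor in at least 2 of 18 libraries were tested on log2(value raised to the floor). Group means of 9 groups were fitted in R 4.3.3 by limma 3.58.1 (robust, with trend; 9 residual degrees of freedom, and spread shared by all groups), and p-values were Benjamini-Hochberg adjusted with a threshold of 0.05. Seed sums (bases 2 to 8) and arm ratios were fitted likewise over families and hairpins. Fits were also run on simulated data, with counts drawn independently and the same spread setting for all miRNAs. Deviations of the real replicates are correlated between the days, so that run cannot tell how many calls here are false. The steps between neighbouring days share libraries.

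Named miRNAs were the 12 largest rises and 12 largest falls among called miRNAs whose groups do not overlap and whose 4 values average 100 or more, the 8 most abundant, the 3 most abundant of each list, and the 5 arm pairs and seed families of lowest p. Others, miR-106b-5p, miR-152-3p and miR-181b-5p among them, were chosen after their values were seen. The members, lists and tests were chosen with earlier results of these data known. RefSeq (GRCm38.p6) gave a sequence for 1166 of 1390 miRNAs (83.9%).

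Same-numbered replicates of day 5 and day 3 deviated in opposite directions, so numbers were not used as pairs.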

Additional observations from a re-analysis of the deposited data

How the results depend on the processing

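Of the 58 miRNAs that rose and 46 that fell, 28 and 33 were called in each of the 4 fits that left out 1 library of day 5 or day 3, where the lone library is assumed to vary like the other groups; the counts then ranged from 36 to 57 rises and from 37 to 52 falls. Without the filter on low values 29 rose. Fitted on the 4 libraries alone, limma called 0 rises and 1 fall, with 57 and 45 at unadjusted p below 0.05. The 3 differing arm pairs became 1 after adding 10 to deposited values, 5 at double the floor and 0 by limma on the 4 libraries alone (8 at unadjusted p below 0.05), and ranged from 1 to 7 when a library was left out. The 14 seed families that rose became 9 after adding 1 and 3 on the 4 libraries alone, ranging from 5 to 11 when a library was left out, and the 10 that fell became 4 on the 4 libraries alone. Same-numbered replicates of the days had deviations correlated at -0.67 over 276 miRNAs, so the numbers do not pair the libraries; with a replicate block 56 rose and 45 fell (of the 106 named miRNAs, miR-501-3p alone lost its call), and with the day 3 numbers crossed, a choice made after seeing the data, 55 and 46. Of 106 named miRNAs 13 lost their call without the filter, 10 after adding 1 and 44 on the 4 libraries alone. No named miRNA that was called in the main fit or in the altered fit changed direction between them. Changes of sign in miRNAs called in neither fit were not counted. Causes were not tested. At the day 3 depth a miRNA under 5 reads is not listed, so rises of miRNAs at the floor have no measured day 3 level.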
